A study of Mus musculus with 4 samples.

Results

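Noncycling luminal epithelial cells of 2 LATS1/2-KO mammary glands were split by the Cre reporter into cells with at least 1 UMI of *EYFP* (*EYFP*+) and cells with none (*EYFP*-), and both kinds of cell were compared within each mouse. A UMI is a tag that marks 1 captured RNA molecule. The cells were chosen by measured values: over 500 genes, under 20% mitochondrial UMIs, 4000 to 15000 UMIs in all, at least 10 UMIs of *Krt8* and *Krt18* per 10000, none of *Krt5*, *Trp63* or *Crct1*, under 2 of *Prlr*, *Cited1* and *Esr1* together, and none of 8 genes of the G2 and M phases (*Ube2c*, *Birc5*, *Cdk1*, *Cdca8*, *Ccnb1*, *Cdc20*, *Top2a*, *Mki67*). This left 90 *EYFP*+ and 514 *EYFP*- cells in replicate 1 and 143 and 700 in replicate 2, which are 1447 of the 9771 LATS1/2-KO cells that passed quality control and of 20324 barcodes in the series. Noncycling stands here for the limit on these 8 genes alone. With no UMI of 8 further cell cycle genes either, 467 of 604 cells remained in replicate 1 and 726 of 843 in replicate 2, so some members carried other cell cycle transcripts.

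The series holds droplet-based 3' RNA counts of live-sorted mammary gland cells from 4 mice, 2 CTL and 2 LATS1/2-KO. Every mouse, adult and nulliparous, carried floxed *Lats1* and *Lats2* (Lats1f/f;Lats2f/f) and the R26-lsl-EYFP reporter, and every mouse received 2 mg tamoxifen into the peritoneum on each of 5 days and was sampled 7 days later. LATS1/2-KO mice also carried Krt8-CreERT2, with the reporter heterozygous in replicate 1 and homozygous in replicate 2, whereas CTL mice (titled WT in the labels) carried no Cre and a heterozygous reporter. The 4 libraries held 47321220 and 43020190 UMIs in CTL and 39319356 and 46476923 in LATS1/2-KO, and any pair of libraries shared 4 to 12 barcodes. As a model the groups have limits. The *Krt8* promoter drives Cre in luminal cells, the counts come from transcript 3' ends and need not cover the floxed exons, and *EYFP* shows recombination at the reporter and not at *Lats1* or *Lats2*. Cells without an *EYFP* UMI may include reporter-positive cells whose transcript was not captured, and they lie in the same glands as the recombined cells.

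LATS1 and LATS2 are the kinases at the end of the Hippo cascade. They phosphorylate the coactivators YAP and TAZ (encoded by *Yap1* and *Wwtr1*), which keeps these out of the nucleus, and without them YAP and TAZ act with TEAD transcription factors on genes of adhesion, the cytoskeleton and growth. In the mammary gland the luminal layer holds hormone receptor-negative (ER-) cells, which include the progenitors of milk-secreting cells, and receptor-positive (ER+) cells, and it is enclosed by a basal, myoepithelial layer.

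*EYFP* was found in 14.9% of noncycling luminal cells in LATS1/2-KO replicate 1 (exact 95% binomial interval 12.2 to 18.0) and 17.0% in replicate 2 (14.5 to 19.7). CTL cells passing the same rule gave 0.346% (5 of 1444) and 0.358% (4 of 1116), and endothelial and immune cells of the same UMI range gave 0.758% (1 of 132) and 3.03% (7 of 231) in LATS1/2-KO. Median depth was 6636 and 6901 UMIs in the luminal cells and 6919 and 6411 in the endothelial and immune cells. The share was 10.5% and 11.7% in cells of 4000 to 8000 UMIs and 24.0% and 25.0% in cells of 8000 to 15000, and it was 10.4% and 11.7% after each cell was thinned to 4000 UMIs. Of the *EYFP*+ cells, 40 and 56 carried 1 UMI, 21 and 35 carried 2, and 29 and 52 carried 3 or more. At the keratin limit, the lowest cells inside had 10.1 and 10.0 UMIs of *Krt8* and *Krt18* per 10000 and the highest outside 9.96 and 9.77, with medians over the members of 90.8 and 86.7. Each *EYFP*+ cell was matched to an *EYFP*- cell of the same mouse with nearly the same total, so that the sums held 778850 and 779464 UMIs in replicate 1 and 1284548 and 1284179 in replicate 2.

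The targeted genes come first. *Lats1* (chr10:7681200-7716461, GRCm38.p6) stood at 25.7 and 24.9 CPM (UMIs of a gene scaled to a total of 1000000) in the *EYFP*- sums of replicates 1 and 2 and at 14.1 and 17.1 in the *EYFP*+ sums, against 24.1 and 25.0 in CTL. Both *EYFP*+ values lay under both *EYFP*- values, but the difference did not pass the test (log2 fold change -0.70 ± 0.36 SE, edgeR BH-adjusted p = 0.218). *Lats2* (chr14:57689662-57746212) gave 25.7 and 37.4 CPM in *EYFP*- and 18.0 and 34.3 in *EYFP*+ cells, values that overlap (log2 fold change -0.29 ± 0.29, edgeR BH-adjusted p = 0.617). Since 3' counts need not cover the deleted part, these levels check neither allele. The genes of the rule are given as values with no test. *Krt8* was 5553 and 4573 CPM in *EYFP*- and 7743 and 6256 in *EYFP*+ sums, and *Krt18* was 7199.8 and 6648 and 9155 and 7686. Both levels are set in part by the rule. *Epcam*, an epithelial adhesion gene that the rule did not use, was at 2609 and 2503 CPM in *EYFP*- and 2130.1 and 2045 in *EYFP*+ sums. *EYFP* itself was 0 by construction in *EYFP*- and 263 and 334 CPM in *EYFP*+ sums.

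*EYFP*+ cells had less of most luminal ER- and milk transcripts that were tested and more of many YAP/TAZ targets, integrins, laminins and actin-binding proteins than *EYFP*- cells of the same gland. Of 8382 genes tested with the mouse as block, 1019 changed at an edgeR BH-adjusted p under 0.05 (12.2%), 569 higher (6.79%) and 450 lower (5.37%) in *EYFP*+ cells. Of the 1019, 1007 moved the same way in both mice and 803 had an absolute log2 fold change of 0.6 or more, while the median over all tested genes was -0.0022. Both *EYFP*+ sums lay above both *EYFP*- sums for 2131 of the tested genes (25.4%) and below them for 1758 (21.0%), and for 544 and 418 of the genes that rose and fell. The counts of each gene list below stand against these shares of 6.79% and 5.37% over all tested genes. The number of calls depended on the method and on the cells used. DESeq2 called 95 of 6139 genes with an adjusted p (1.55%), of which 94 were among the 1019 with the same sign, and edgeR without the block on mouse called 145 (1.73%), all among the 1019. Cells of 4000 to 8000 UMIs gave 200 calls, of which 175 were among the 1019. The 4 sums leave little spread for each gene, so the test pools it over genes, and the value of each sum is given below. Each SE is the size of the log2 fold change divided by the square root of the test's F statistic. It rests on the pooled spread, so neither the SE nor the p-value measures how far the 2 mice differ for a gene. A set of 54 genes, 36 higher and 18 lower, was called in the same direction under all 12 alternatives that give a test.

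**Figure D1:**
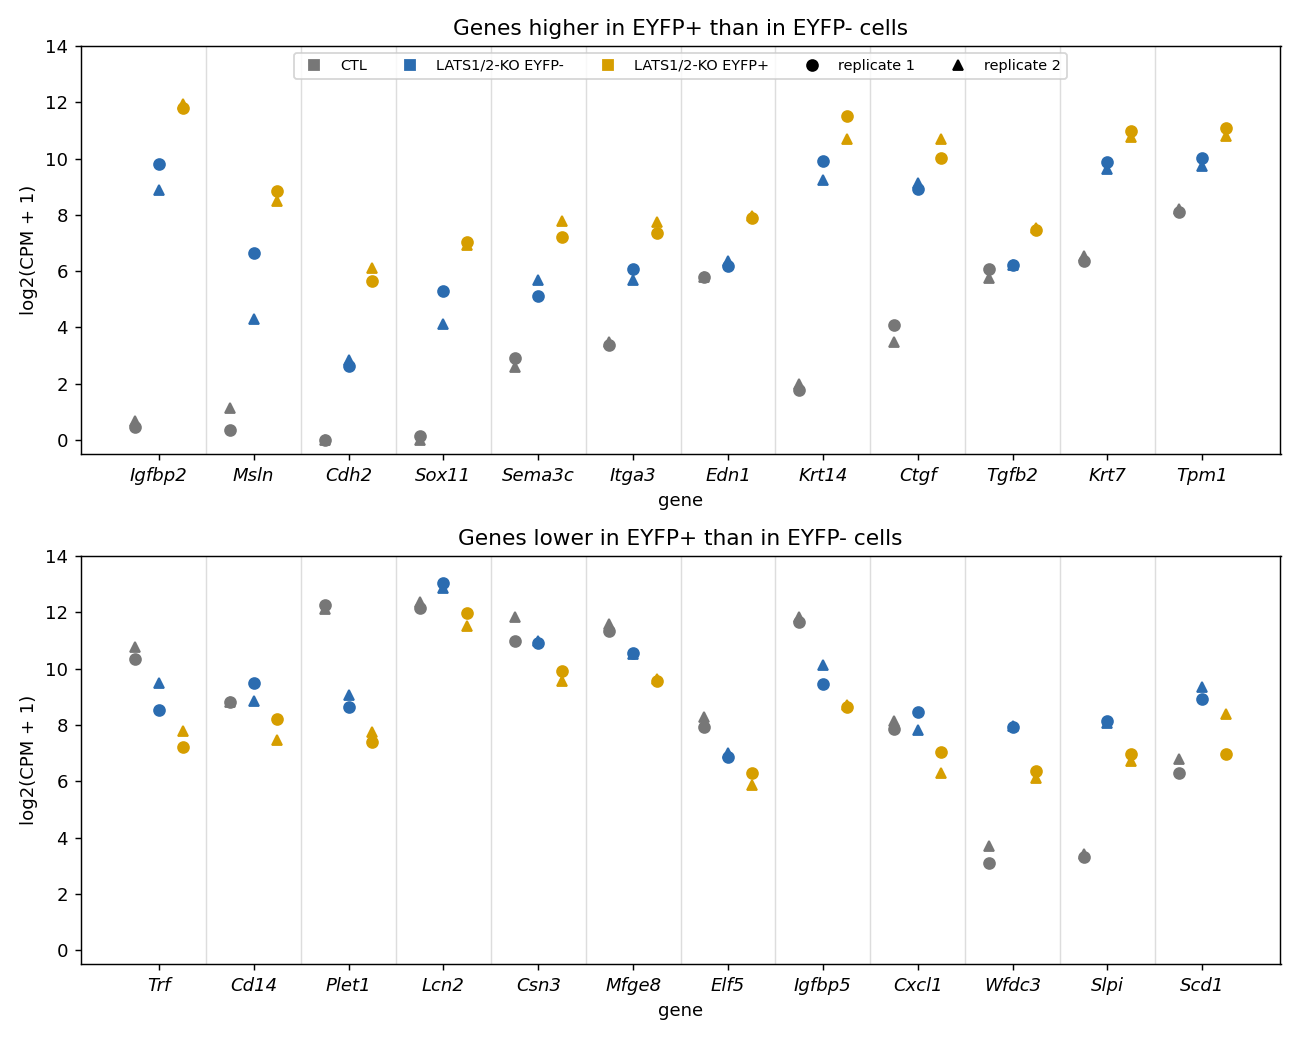
Levels of 24 genes as log2(CPM + 1) in 6 sums of noncycling luminal cells: CTL (grey), LATS1/2-KO *EYFP*- (blue) and LATS1/2-KO *EYFP*+ (yellow), with circles for replicate 1 and triangles for replicate 2. In the upper panel both yellow symbols of each gene lie above both blue ones, as for *Igfbp2* at 3509 and 3955 against 890.4 and 465 CPM, and in the lower panel they lie below, as for *Trf* at 146 and 223 against 373 and 716 CPM.

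Most luminal ER- markers fell. All 10 passed the filter on low counts, and 9 were lower in *EYFP*+ cells and none higher, against 5.37% of all genes lower, with a median log2 fold change of -1.08. DESeq2 called 5 of them. *Trf*, which encodes the iron carrier transferrin and was named after its values were seen, was 373 and 716 CPM in *EYFP*- and 146 and 223 in *EYFP*+ sums (log2 fold change -1.57 ± 0.15 SE, edgeR BH-adjusted p = 1.34e-22). *Cd14*, a coreceptor for bacterial lipopolysaccharide, went from 722 and 461 to 294 and 175 CPM (log2 fold change -1.38 ± 0.15, edgeR BH-adjusted p = 1.89e-18). For *Trf* and *Cd14* the *EYFP*+ sums lay below both *EYFP*- sums. *Wfdc18*, a secreted whey acidic protein family member and the most abundant marker over all sums together, fell from 7048 and 7739 to 2969.8 and 5752 CPM (log2 fold change -0.87 ± 0.21, edgeR BH-adjusted p = 6.37e-04). *Lcn2*, the siderophore-binding lipocalin, was abundant, at 8404 and 7404 CPM in *EYFP*- and 4048 and 2908 in *EYFP*+ sums (log2 fold change -1.23 ± 0.21, edgeR BH-adjusted p = 1.27e-07). *Elf5*, the transcription factor of alveolar differentiation, fell from 115 and 126 to 77.0 and 56.8 CPM (log2 fold change -0.93 ± 0.17, edgeR BH-adjusted p = 3.22e-06; 0.698 by DESeq2). The exception was *Aldh1a3*, a retinaldehyde dehydrogenase of luminal progenitors, at 291 and 173 against 187 and 190.0 CPM (edgeR BH-adjusted p = 0.283), where the sums overlap. *Kit*, the progenitor receptor kinase, differed in size between the mice, from 189 to 91.2 CPM in replicate 1 and from 252 to 216 in replicate 2 (log2 fold change -0.59 ± 0.16, edgeR BH-adjusted p = 0.00300). In replicates 1 and 2 taken alone the log2 fold changes were -1.24 and -0.49 for *Wfdc18*, -0.57 and -1.21 for *Elf5*, and -1.04 and -0.28 for *Kit*.

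Among 12 milk protein genes, 4 passed the filter and all 4 fell, with a median log2 fold change of -1.12. The list shares *Csn3* with the luminal ER- markers, so its decrease counts in both. *Csn3*, which encodes kappa-casein, was 1944 and 2005 CPM in *EYFP*- and 975 and 757 in *EYFP*+ sums (log2 fold change -1.23 ± 0.16, edgeR BH-adjusted p = 8.68e-13). *Mfge8*, a milk fat globule protein, fell from 1501 and 1469 to 756 and 799.5 CPM (log2 fold change -0.96 ± 0.15, edgeR BH-adjusted p = 1.79e-08). *Muc1*, a membrane mucin, fell from 82.1 and 98.9 to 57.8 and 39.7 CPM, and *Xdh*, a xanthine oxidoreductase of the milk fat globule, had a log2 fold change of -1.42. The share of cells with a *Csn3* UMI was 78.9% and 88.1% of *EYFP*- and 60.0% and 53.1% of *EYFP*+ cells, against 28.0% and 18.2% of endothelial and immune cells, which should lack it, at median depths of 8251.5, 8633, 8238, 8620, 6919 and 6411 UMIs in that order. The decrease differed in size between the mice, with log2 fold changes in replicates 1 and 2 of -0.50 and -1.37 for *Muc1* and -0.76 and -1.72 for *Xdh*.

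Of 22 YAP/TAZ targets listed, 21 passed the filter, 10 rose and 1 fell, against 6.79% of all genes higher and 5.37% lower, with a median log2 fold change of 0.81; DESeq2 called 3. *Ctgf*, a matricellular protein and standard readout of YAP, was 485 and 561 CPM in *EYFP*- and 1031 and 1657 in *EYFP*+ sums (log2 fold change 1.30 ± 0.15 SE, edgeR BH-adjusted p = 1.52e-15). *Ankrd1*, a nuclear ankyrin repeat protein, went from 183 and 164 to 243 and 378 CPM (log2 fold change 0.81 ± 0.15, edgeR BH-adjusted p = 4.23e-06; 0.296 by DESeq2). In both genes the *EYFP*+ sums lay above both *EYFP*- sums. *Cyr61*, the most abundant target, also lay higher without passing the test, at 911 and 976 against 1139 and 1214 CPM (log2 fold change 0.29 ± 0.15, edgeR BH-adjusted p = 0.227). *Amotl2*, which encodes an angiomotin-like inhibitor of YAP and was named after its values were seen, rose from 109 and 80.2 to 243 and 265 CPM (log2 fold change 1.42 ± 0.16, edgeR BH-adjusted p = 3.76e-16). The gene that fell was *Gadd45a* (log2 fold change -0.52), a stress-induced gene likewise named after its value was seen. Log2 fold changes in replicates 1 and 2 alone were 0.41 and 1.14 for *Ankrd1* and -0.26 and -0.71 for *Gadd45a*, and 1 *EYFP*- cell held 42.4% of the *Ankrd1* sum in replicate 2. The 10 that rose include *Igfbp3*, for which 1 cell held 57.1% of the *EYFP*+ sum in replicate 1 and 1 held 61.7% in replicate 2, and which is described with the IGF binding proteins.

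Of 20 Hippo pathway and TEAD genes, all passed the filter, 5 rose and none fell, against 6.79% of all genes higher and 5.37% lower, with a median log2 fold change of 0.20. DESeq2 called 1 of them. *Tead1*, a TEAD transcription factor, was 98.8 and 69.3 CPM in *EYFP*- and 118 and 151 in *EYFP*+ sums (log2 fold change 0.70 ± 0.17, edgeR BH-adjusted p = 6.25e-04). The rest of those that rose, named after their values were seen, were the scaffolds *Amot* (1.82), *Frmd6* (0.76) and *Wwc2* (0.64) and the factor *Tead4* (1.33, log2 fold changes). *Yap1* gave 41.1 and 45.9 against 24.4 and 55.3 CPM (edgeR BH-adjusted p = 0.867) and was lower in *EYFP*+ cells of replicate 1 and higher in those of replicate 2. *Wwtr1* gave 144 and 164 against 134 and 128 CPM (edgeR BH-adjusted p = 0.297). For each mouse alone the log2 fold changes were 0.26 and 1.05 for *Tead1* and 1.08 and 2.28 for *Amot* (replicate 1, then 2).

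The promoters of the targets that rose were searched for GGAATG, the core letters of the TEAD motif, on either strand (GGAATG or CATTCC) in the 250 bases before the transcription start, taken from RefSeq on GRCm38.p6. Of the 10 genes, 7 had a promoter in that table and 4 of these held the letters. The letters stood in 12.6% of all 32851 promoters, but with 3 of the 10 genes missing from the table a comparison of the list with that share is void. They are printed 5′ to 3′ on the gene's strand, with the matches in capitals, because these are the members of the list that both rose and carry the letters. *Ankrd1* is at chr19:36119845-36120094 on the minus strand, *Amotl2* at chr9:102717554-102717803 on the plus strand, *Axl*, a receptor kinase, at chr7:25788734-25788983 on the minus strand, and *Crim1*, a transmembrane regulator of BMP, at chr17:78199998-78200247 on the plus strand.
Ankrd1: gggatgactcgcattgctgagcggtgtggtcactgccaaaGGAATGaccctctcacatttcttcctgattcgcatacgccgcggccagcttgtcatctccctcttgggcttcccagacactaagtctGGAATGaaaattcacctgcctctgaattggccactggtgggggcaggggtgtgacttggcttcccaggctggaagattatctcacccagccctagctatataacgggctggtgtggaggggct
Amotl2: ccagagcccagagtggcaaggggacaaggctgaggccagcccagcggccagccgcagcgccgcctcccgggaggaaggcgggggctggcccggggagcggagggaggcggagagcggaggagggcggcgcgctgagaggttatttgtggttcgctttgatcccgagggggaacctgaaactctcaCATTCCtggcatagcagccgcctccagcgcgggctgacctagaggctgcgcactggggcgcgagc
Axl: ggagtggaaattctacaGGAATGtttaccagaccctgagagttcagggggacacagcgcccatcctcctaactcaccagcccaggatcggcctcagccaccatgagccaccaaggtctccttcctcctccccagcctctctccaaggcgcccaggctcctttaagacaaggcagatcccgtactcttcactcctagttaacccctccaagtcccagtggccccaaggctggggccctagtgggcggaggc
Crim1: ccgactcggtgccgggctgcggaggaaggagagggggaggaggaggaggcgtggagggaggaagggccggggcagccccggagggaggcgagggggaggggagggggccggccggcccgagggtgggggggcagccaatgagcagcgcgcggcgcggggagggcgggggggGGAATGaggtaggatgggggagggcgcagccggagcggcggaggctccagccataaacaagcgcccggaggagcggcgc
*Axl* rose from 12.8 and 10.1 to 23.1 and 38.9 CPM (log2 fold change 1.49) and *Crim1* from 25.7 and 57.6 to 84.7 and 87.2 CPM (log2 fold change 0.93); both were named after their values were seen. Endothelial and immune cells of LATS1/2-KO had *Axl* at 42.7 and 73.9 and *Crim1* at 101 and 89.5 CPM, above the *EYFP*+ sums. *Ankrd1*, at 9.38 and 6.88, and *Amotl2*, at 19.8 and 23.2 CPM there, lay below theirs. The part of such RNA in these increases was not tested. A match is a run of letters, and binding was not measured. Replicates 1 and 2 alone gave log2 fold changes of 0.82 and 1.84 for *Axl* and 1.71 and 0.53 for *Crim1*.

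Of 12 keratins 6 passed the filter and 3 rose. *Krt14*, the basal keratin, was 962 and 609 CPM in *EYFP*- and 2908 and 1641 in *EYFP*+ sums, against 2.43 and 2.95 in CTL (log2 fold change 1.48 ± 0.16 SE between *EYFP*+ and *EYFP*-, edgeR BH-adjusted p = 8.03e-18). Since the rule kept only cells without *Krt5* or *Trp63*, these *Krt14* UMIs lie in cells with none of either. *Krt7*, a simple epithelial keratin, rose from 935 and 799 to 2011 and 1736 CPM (log2 fold change 1.08 ± 0.16, edgeR BH-adjusted p = 4.27e-10). The last was *Krt6a*, a keratin of stressed epithelium named after its values were seen, at 10.3 and 31.9 against 241 and 42.8 CPM, where 1 *EYFP*- cell held 90.2% of the sum of replicate 2 and 1 *EYFP*+ cell 34.6% of that of replicate 1. *Krt19* did not pass the test, at 1827 and 1267 against 1937 and 1298 CPM (edgeR BH-adjusted p = 0.944). Of 8 basal markers 4 passed the filter, and besides *Krt14* the actin gene *Acta2* rose, where 1 cell held 35.7% of the *EYFP*+ UMIs of replicate 1 and 1 cell held 66.2% of the *EYFP*- UMIs of replicate 2. In cells of 4000 to 8000 UMIs its log2 fold change was -0.79. The increase of both *Krt6a* and *Acta2* lay mainly in replicate 1, with log2 fold changes in replicates 1 and 2 of 4.48 and 0.35 for *Krt6a* and 3.61 and 0.45 for *Acta2*.

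Of 6 ER+ markers listed besides the rule's own, 4 passed the filter and 3 rose. The most abundant, *Ly6a*, did not pass the test, at 257 and 337 against 184 and 387 CPM (edgeR BH-adjusted p = 0.658). *Wnt4*, a ligand downstream of progesterone, was 64.1 and 23.4 CPM in *EYFP*- and 158 and 117 in *EYFP*+ sums (log2 fold change 1.74 ± 0.19, edgeR BH-adjusted p = 2.44e-18). *Areg*, an EGF receptor ligand, gave 64.1 and 13.2 against 109 and 54.5 CPM, with the lower *EYFP*+ sum below the higher *EYFP*- sum. *Foxa1*, the cofactor of the estrogen receptor, was 5.13 and 2.34 against 14.1 and 16.3 CPM. The log2 fold changes of the mice, replicate 1 first, were 0.77 and 1.95 for *Areg* and 1.36 and 2.56 for *Foxa1*.

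IGF binding proteins, which hold insulin-like growth factors outside cells, moved in opposite directions. *Igfbp2* was 890.4 and 465 CPM in *EYFP*- and 3509 and 3955 in *EYFP*+ sums, and 0.373 and 0.589 in CTL (log2 fold change 2.50 ± 0.18 SE between *EYFP*+ and *EYFP*-, edgeR BH-adjusted p = 1.18e-40). Its UMIs were unevenly spread, with 1 *EYFP*- cell holding 29.8% of the sum in replicate 1 and 1 holding 45.4% in replicate 2. *Igfbp7* rose from 685 and 706 to 1475 and 1555 CPM (log2 fold change 1.09 ± 0.15, edgeR BH-adjusted p = 7.92e-11). Endothelial and immune cells of LATS1/2-KO had *Igfbp7* at 3753 and 2697 CPM, and the part of such RNA in this increase was not tested. *Igfbp5* fell from 698 and 1127 to 399 and 413 CPM (log2 fold change -1.17 ± 0.15, edgeR BH-adjusted p = 2.70e-13). The sums of these 3 genes did not overlap between *EYFP*+ and *EYFP*- cells. Of 6 listed members 5 passed the filter, 3 rose and 1 fell. The third to rise was *Igfbp3* (log2 fold change 1.10), at 7.70 and 31.9 against 27.0 and 63.1 CPM, which overlap. It was at 145 and 223 CPM in endothelial and immune cells of LATS1/2-KO, and the part of such RNA in its increase was not tested. In replicate 1 a single *EYFP*+ cell held 57.1% of its *EYFP*+ UMIs, and in replicate 2 a single cell held 61.7%. Its log2 fold change was 1.73 in replicate 1 and 0.91 in replicate 2, -0.095 over unmatched cells thinned to 4000 UMIs and -0.066 with 8 further cell cycle genes at 0.

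Of 18 integrins and laminins 17 passed the filter, 11 rose and 1 fell, with a median log2 fold change of 0.77, and of 29 focal adhesion and actin genes 28 passed, 17 rose and none fell, with a median of 0.51. Over all genes tested 6.79% were higher and 5.37% lower. DESeq2 called 2 and 3 of the members. *Itga3*, the alpha subunit of a laminin receptor, was 66.7 and 50.6 CPM in *EYFP*- and 160.5 and 213 in *EYFP*+ sums (log2 fold change 1.68 ± 0.17, edgeR BH-adjusted p = 1.61e-19). *Itgb1*, its partner, rose from 496 and 424 to 773 and 716 CPM (log2 fold change 0.67 ± 0.14, edgeR BH-adjusted p = 1.00e-04; 0.0872 by DESeq2). The laminin chains *Lama3* (1.54) and *Lamb3* (0.95, log2 fold changes) rose too, and *Itgb8* (-0.76) was the member that fell; these 3 were named after their values were seen. Among actin genes, tropomyosin *Tpm1* went from 1044 and 857 to 2169 and 1778 CPM (log2 fold change 1.02 ± 0.16, edgeR BH-adjusted p = 6.67e-09), while *Actb* (0.33) and *Actg1* (0.065) did not pass the test (edgeR BH-adjusted p = 0.305 and 0.892).

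**Figure D2:**
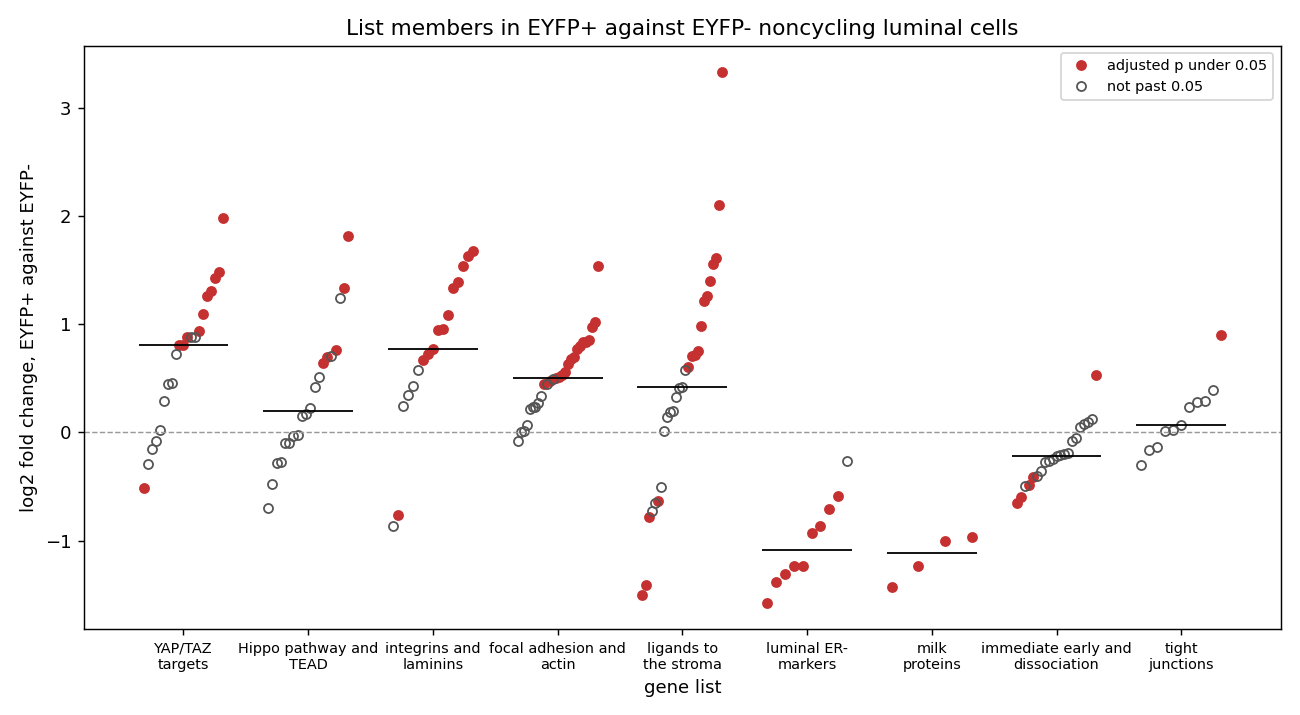
Log2 fold change between *EYFP*+ and *EYFP*- cells of the members of 9 gene lists that passed the filter on low counts, each point 1 gene, filled red where the edgeR BH-adjusted p is under 0.05 and open otherwise, with a line at each list's median. The median is -1.08 for luminal ER- markers, 0.77 for integrins and laminins and 0.07 for tight junctions.

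Ligands that act on stromal cells moved in both directions. Of 41 listed 27 passed the filter, 12 rose and 4 fell, with a median log2 fold change of 0.42. *Sema3c*, a secreted semaphorin, was 33.4 and 49.8 CPM in *EYFP*- and 146 and 221 in *EYFP*+ sums (log2 fold change 2.10 ± 0.18, edgeR BH-adjusted p = 1.17e-27). *Tgfb2*, a TGF-beta ligand, rose from 73.1 and 72.4 to 173 and 182 CPM, with CTL at 66.8 and 52.5 (log2 fold change 1.26 ± 0.17, edgeR BH-adjusted p = 8.28e-12). *Edn1*, the vasoconstrictor endothelin-1, named after its values were seen, rose from 71.8 and 81.0 to 236 and 244 CPM, with CTL at 54.7 and 53.8 (log2 fold change 1.61 ± 0.17, edgeR BH-adjusted p = 1.42e-19). For *Tgfb2* and *Edn1* the *EYFP*- sums had log2 fold changes of -0.068 and 0.16 against CTL (edgeR BH-adjusted p = 0.791 and 0.424), and the *EYFP*+ sums lay above all the others. The neutrophil chemokine *Cxcl1* fell from 348 and 224 to 132 and 77.1 CPM (log2 fold change -1.50 ± 0.16, edgeR BH-adjusted p = 1.89e-18), and the others that fell, named after their values were seen, were *Cxcl2* (-1.41), *Vegfa* (-0.78) and *Inhbb* (-0.63, log2 fold changes). For *Cxcl1*, 1 *EYFP*- cell held 33.0% of the sum of replicate 2 and 1 *EYFP*+ cell 30.1% of that of replicate 1. Endothelial and immune cells of LATS1/2-KO had *Cxcl1* at 267 and 255 CPM, *Cxcl2* at 400 and 600, *Vegfa* at 49.0 and 61.3 and *Inhbb* at 103 and 43.8. The part of such RNA in these decreases was not tested. *Pdgfa* (0.61), *Pdgfb* (0.75) and the macrophage growth factor *Csf1* (0.98) rose as well (log2 fold changes), and DESeq2 called none of these 3. Their increases were larger in replicate 2, with log2 fold changes in replicates 1 and 2 of 0.34 and 0.82 for *Pdgfa*, 0.34 and 1.14 for *Pdgfb*, and 0.23 and 1.42 for *Csf1*. *Efnb1* and *Efnb2*, the B ephrins, had log2 fold changes of 0.42 ± 0.26 and 0.33 ± 0.21 (edgeR BH-adjusted p = 0.326 and 0.345), and *Thbs1*, the most abundant ligand, of 0.14 ± 0.14 (edgeR BH-adjusted p = 0.620).

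Among genes with at least 20 CPM in the higher sum of each mouse, the 14 largest increases ran from log2 2.43 to 3.91 and the 14 largest decreases from -3.13 to -1.58. That floor applied to the higher sum only, so this ranking favors genes near 0 in the other cells. Where the lower sum rests on few UMIs or on 0, the size of the change is imprecise. *Bex4* had 0 UMIs in the *EYFP*- sum of replicate 1, and *Efemp1* stood at 3.85 and 2.34 CPM in the *EYFP*- sums. *Efemp1* was at 33.4 and 38.1 CPM in the *EYFP*+ sums and at 27.1 and 78.9 in endothelial and immune cells of LATS1/2-KO. The part of such RNA in its increase was not tested. *Msln*, which encodes the surface protein mesothelin, was 100.1 and 18.7 CPM in *EYFP*- and 464 and 360.4 in *EYFP*+ sums (log2 fold change 3.02 ± 0.17, edgeR BH-adjusted p = 2.51e-62). *Cdh2*, the N-cadherin of mesenchymal and neural cells, was 5.13 and 6.23 against 48.8 and 67.7 CPM, with no UMI in the CTL sums of 1444 and 1116 cells, while *Cdh1*, the epithelial cadherin, was 246 and 253 against 297 and 346 CPM (edgeR BH-adjusted p = 0.131). The remaining increases were *Bex4*, *Efemp1*, *Npr3*, *Sema3e*, *Atg9b*, *Nog*, *Upk1b*, *Aif1l*, *Pak6*, *Igfbp2*, *Gipc2* and *Bdnf*, which include the BMP antagonist noggin and a neurotrophin. *Hpgd*, the enzyme that inactivates prostaglandin E2, fell from 20.5 and 29.6 to 5.14 and 1.56 CPM, and *Ptgs2*, the cyclooxygenase that makes its precursor, rose from 117 and 69.3 to 281 and 128 CPM (log2 fold changes -3.13 ± 0.53 and 1.05 ± 0.16, edgeR BH-adjusted p = 2.56e-07 and 1.24e-08). *Tnfaip2*, induced by TNF, fell from 97.5 and 62.3 to 18.0 and 23.4 CPM, and was at 96.9 and 91.4 CPM in endothelial and immune cells of LATS1/2-KO. *Fabp4* and *Apoe* were also among the decreases, but 1 *EYFP*- cell held 29.7% of the *Fabp4* sum in replicate 2 and 1 held 38.3% of the *Apoe* sum in replicate 1, and each decrease lay almost wholly in that mouse, with log2 fold changes in replicates 1 and 2 of -0.19 and -3.37 for *Fabp4* and -3.38 and -0.10 for *Apoe*. Both genes were far higher in endothelial and immune cells of LATS1/2-KO, *Fabp4* at 12629 and 5483 CPM and *Apoe* at 5095 and 7353, as was *Lrg1* at 2076 and 1282. *Galnt15*, also among the decreases, was at 102 and 231 CPM there. Over all eligible cells with no *EYFP* UMI it was at 43.8 and 29.9 CPM. The part of such RNA in these decreases was not tested. The rest were *2010300C02Rik*, *Hhipl2*, *Dixdc1*, *Galnt15*, *Fam20a*, *Rftn1*, *Wfdc3*, *Nos1ap*, *Lrg1* and *Deptor*. Among the 28 genes, other values that differed between replicates 1 and 2 alone included those of *Msln*, with log2 fold changes of 2.21 and 4.18. They were 2.15 and 3.87 for *Upk1b*, 1.76 and 3.11 for *Bdnf*, and 1.98 and 3.02 for *Igfbp2*. Further pairs were 1.91 and 3.96 for *Sema3e*, 1.83 and 4.19 for *Atg9b*, and 1.53 and 3.77 for *Pak6*. Among the decreases they were -1.87 and -4.00 for *Hpgd*, -2.80 and -1.52 for *Dixdc1*, -1.20 and -2.19 for *Fam20a*, and -1.05 and -2.01 for *Lrg1*.

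Of 6 SOX factors 5 passed the filter and *Sox11* alone was called, rising from 38.5 and 16.4 to 128 and 121 CPM (log2 fold change 2.27 ± 0.20, edgeR BH-adjusted p = 1.38e-25). *Sox11*, a factor of embryonic tissues, had a UMI in 36.7% and 25.9% of *EYFP*+ and 11.1% and 5.59% of *EYFP*- cells, against 1.52% and 2.16% of endothelial and immune cells, at the depths given for *Csn3*. In replicate 2, 1 *EYFP*- cell held 61.9% of the *Sox11* sum. Of 20 squamous and mucosal genes 17 passed, 9 rose and 1 fell, *Wfdc3*. The annexin *Anxa1* rose from 2108 and 1813 to 3807 and 4234 CPM (log2 fold change 1.01 ± 0.18, edgeR BH-adjusted p = 7.11e-07).

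Of 14 fatty acid synthesis genes 11 passed, none rose and 2 fell. *Scd1*, the stearoyl-CoA desaturase, went from 479.8 and 656 to 126 and 337 CPM (log2 fold change -1.41 ± 0.15, edgeR BH-adjusted p = 1.36e-18), and the lipid droplet gene *Plin2* from 911 and 616 to 584 and 347 CPM (log2 fold change -0.76 ± 0.14, edgeR BH-adjusted p = 4.77e-06). The lists that follow are also set against 6.79% of all genes higher and 5.37% lower. DESeq2 called 1 epithelial-mesenchymal transition gene, and so did edgeR without the block on mouse. Neither called a tight junction, interferon and MHC class I, or metallothionein and antioxidant gene of these lists. The same held for the immediate early, S phase and other G2 and M lists. Of 12 epithelial-mesenchymal transition genes 8 passed and 2 rose (*Cdh2*, *Fn1*), of 12 tight junction genes 11 passed and 1 rose (*Cgn*, named after its value was seen), and of 14 interferon and MHC class I genes 14 passed and 2 rose (*Ifit2* and *Bst2*, named after their values were seen). Of 14 metallothionein and antioxidant genes 13 passed and 2 rose (*Txn1* and *Hmox1*, the latter named after its value was seen). In replicate 2, 1 *EYFP*+ cell held 34.0% of the *Hmox1* sum. Of 21 immediate early and dissociation genes all passed, 1 rose (*Dusp1*) and 4 fell (*Egr1*, *Fosb*, *Ier2* and *Btg2*), all 5 named after their values were seen, with *Hspb1* the most abundant, at 2584 and 3177 against 3046 and 3229 CPM. Among genes of proliferation the rule did not use, 20 S phase and growth genes were listed, of which 11 passed, 2 rose (*Ccnd1* and *Ccnd2*, the latter named after its value was seen) and 1 fell (*Myc*). The *Ccnd2* sums rested on few UMIs. In *EYFP*+ cells 1 cell with 5 UMIs held 45.5% of the sum of replicate 1, and 1 with 6 held 40.0% in replicate 2. Of 19 other G2 and M genes 6 passed and 2 rose, both tubulins (*Tubb4b* and *Tuba1b*). *Ccnd1* was 185 and 109 against 232 and 167 CPM and *Myc* 129.6 and 137 against 93.7 and 99.6 CPM. Some of these calls differed in size between replicates 1 and 2, with log2 fold changes of 0.93 and 2.26 for *Fn1*, 0.70 and 1.37 for *Ifit2*, 0.29 and 1.09 for *Hmox1*, 0.35 and 0.68 for *Dusp1*, and 0.72 and 0.33 for *Tuba1b*. Of 81 ribosomal protein genes 78 passed, and they had a median log2 fold change of -0.32, with 1 higher and 5 lower.

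Markers of other cell types were measured in the same sums. Of 6 fibroblast markers all passed the filter and 4 were higher in *EYFP*+ cells (*Col1a1*, *Col3a1*, *Col1a2* and *Lum*, the last named after its value was seen), with summed levels of 607 and 823 CPM in *EYFP*- and 1235 and 1108 in *EYFP*+ sums against 33.0 and 52.0 in CTL. Their most abundant gene, *Col1a1*, was 233 and 273 against 457 and 482 CPM, and in each of the 4 sums 1 cell held 43.7 to 65.4% of its UMIs. Without cells carrying stromal or immune UMIs the log2 fold change was -0.11 for *Col1a1* and -0.41 for *Col3a1*, and with 8 further cell cycle genes at 0 it was -0.49 for *Col1a2* (edgeR BH-adjusted p = 0.0227). Of 6 macrophage markers 2 passed, and both, *Lyz2* and *C1qa*, were lower in *EYFP*+ cells, with summed levels of 286 and 45.2 CPM in *EYFP*- and 34.7 and 44.4 in *EYFP*+ sums; 1 *EYFP*- cell of replicate 1 carried 108 macrophage UMIs. Their decreases lay in that mouse, with log2 fold changes in replicates 1 and 2 of -3.28 and -0.065 for *Lyz2* and -3.59 and 0.27 for *C1qa*, and those of the collagens were 1.09 and 0.19 for *Col3a1* and 0.73 and 0.30 for *Col1a2*. Perivascular markers summed to 32.1 and 40.5 against 28.2 and 29.6 CPM, with *Notch3* the most abundant and the only one tested. Endothelial, lymphocyte and adipocyte markers had no member past the filter and summed to at most 45.2, 7.01 and 6.23 CPM in any of the 4 sums, led by *Pecam1*, *Ptprc* and *Cidec*; *Cd3e*, *Cd3g*, *Nkg7* and *Plin1* were at 0 in all 4. No doublets were removed and no doublet caller was run, and the part of such cells in the results was not tested. Leaving out cells with stromal or immune UMIs, which also left fewer pairs (58 and 92), gave 396 calls, of which 375 were among the 1019 with the same sign.

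Levels also differed by the number of *EYFP* UMIs in a cell, described here over all eligible cells with no test, since that number grows with depth. *Igfbp2* was 724 CPM in cells of replicate 1 with none, 2524 with 1, 5894 with 2 and 2898 with 3 or more, and 348, 820.2, 5185 and 5895 CPM in replicate 2. *Csn3* ran the other way, at 1812, 1327, 753 and 751 CPM in replicate 1 and 2216, 1429, 435 and 374 in replicate 2. *Lcn2* was 7743, 6134, 4102 and 1773 CPM in replicate 1 and 7283, 4932, 1846 and 1807 in replicate 2. Cells with 1 *EYFP* UMI thus lay between those with none and those with more for these 3 genes in both mice, while depth differed as well. Median depths from none to 3 or more *EYFP* UMIs were 6287.5, 6983.5, 9643 and 8945 UMIs in replicate 1 and 6684, 7519, 7903 and 10450.0 in replicate 2. *Lats1* was 23.5, 23.2, 15.3 and 3.56 CPM in replicate 1 and 25.5, 17.8, 19.8 and 15.0 in replicate 2, levels that rest on few UMIs.

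**Figure D3:**
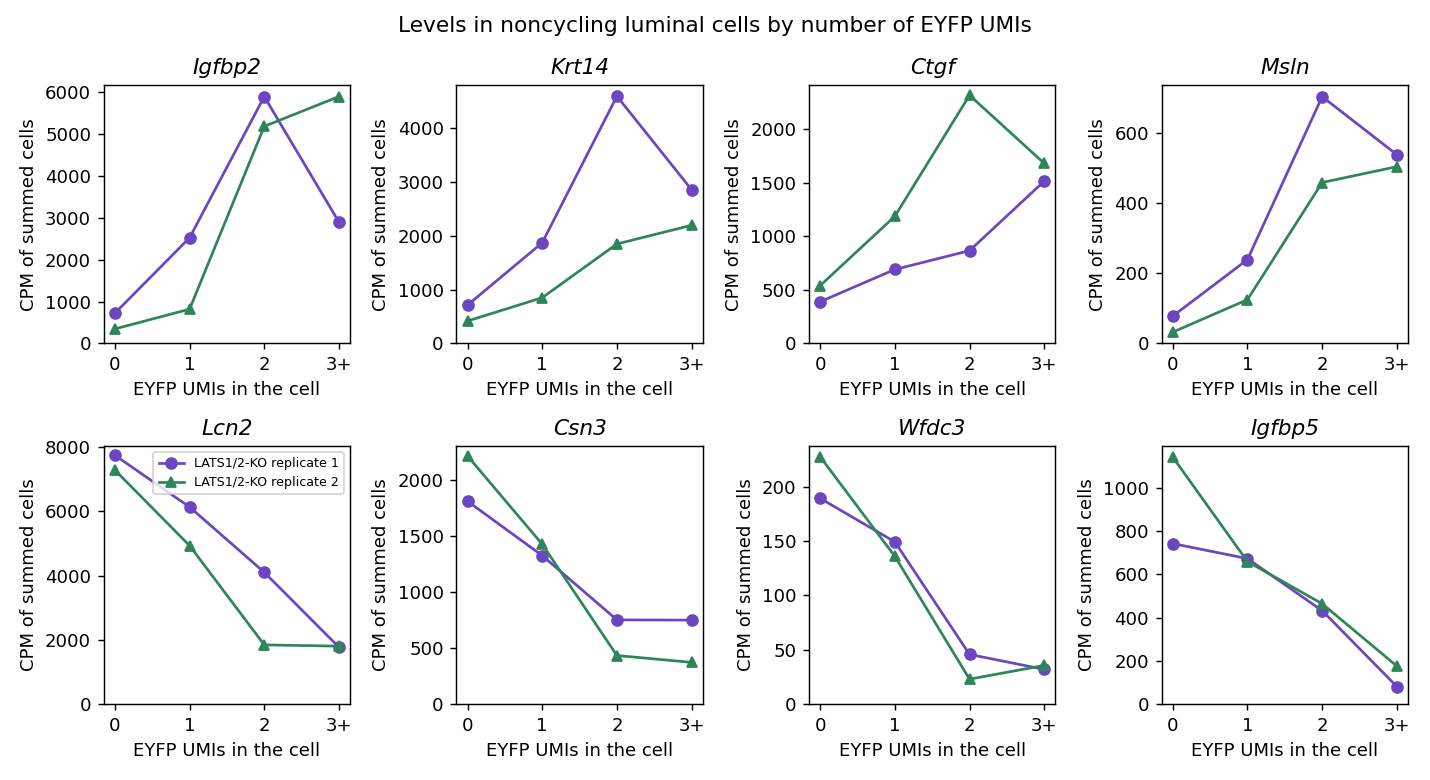
CPM of 8 genes in summed noncycling luminal cells of LATS1/2-KO by the number of *EYFP* UMIs in the cell (0, 1, 2, 3 or more), with purple circles for replicate 1 and green triangles for replicate 2 and each axis starting at 0. *Lcn2* is at 7743 and 7283 CPM in cells with no *EYFP* UMI and at 1773 and 1807 in cells with 3 or more.

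*EYFP*- cells of LATS1/2-KO glands were set beside luminal cells of CTL glands chosen by the same rule, which shares the *EYFP*- sums with the comparison above. Of 11129 genes tested 3469 changed (31.2%), 1702 higher (15.3%) and 1767 lower (15.9%) in *EYFP*- cells (edgeR, BH-adjusted p under 0.05), 4684 (42.1%) had an unadjusted p under 0.05, and DESeq2 called 1955 of 12881 (15.2%). The count was 2238 without CTL replicate 1, 2306 without CTL replicate 2, 2600 without LATS1/2-KO replicate 1 and 2044 without LATS1/2-KO replicate 2. CTL cells were shallower, with median depths of 6436.5 and 6752 UMIs against 8251.5 and 8633, and at 4000 UMIs per cell 2160 genes were called. The genes named above differ in where the *EYFP*- cells lie between CTL and *EYFP*+ cells. *Plet1*, named after its values were seen, was 4905 and 4462 CPM in CTL, 402 and 529.5 in *EYFP*- and 168 and 216 in *EYFP*+ cells. *Ctgf* was 16.2 and 10.3 CPM in CTL, with *EYFP*- sums of 485 and 561 (log2 fold change 4.94 against CTL, edgeR BH-adjusted p = 3.12e-07). *Igfbp5* was 3199 and 3623 CPM in CTL, so that its level stepped down from CTL to *EYFP*- to *EYFP*+ cells.

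Another pattern was a level higher in *EYFP*- cells than in either other group. *Wfdc3*, a protease inhibitor-like gene, was 7.56 and 11.9 CPM in CTL, 244 and 247 in *EYFP*- and 80.9 and 67.7 in *EYFP*+ cells (log2 fold change 4.32 for *EYFP*- against CTL and -1.77 for *EYFP*+ against *EYFP*-, edgeR BH-adjusted p = 3.51e-07 and 2.29e-23). *Slpi*, a secreted inhibitor of neutrophil elastase named after its values were seen, was 8.87 and 9.67 CPM in CTL, 278 and 270.2 in *EYFP*- and 123 and 104 in *EYFP*+ cells (log2 fold change 4.54 and -1.31, edgeR BH-adjusted p = 1.08e-07 and 1.34e-14). *Scd1* was 77.3 and 109, 479.8 and 656, and 126 and 337 CPM in the same order, and the potassium channel gene *Kcnj15* 1.21 and 1.89, 48.8 and 73.2, and 23.1 and 37.4 CPM. For all 4 the *EYFP*+ sums lay below the *EYFP*- sums and above those of CTL. Free RNA from other cells was not subtracted. Over endothelial and immune cells of LATS1/2-KO, *Wfdc3* was at 2.08 and 2.50 CPM, *Slpi* at 30.2 and 103, *Scd1* at 13.5 and 54.5 and *Kcnj15* at 13.5 and 5.63. In the same cells *Igfbp2* was at 84.4 and 67.6, *Krt14* at 70.8 and 63.2 and *Ctgf* at 89.6 and 87.0 CPM. All of these lay below their *EYFP*- sums, but *Slpi* of replicate 2 was near its *EYFP*+ sum of 104 CPM. At the depths given for *Csn3*, an *Igfbp2* UMI was found in 44.7% and 38.5% of the endothelial and immune cells, near the 47.8% and 45.5% of *EYFP*- cells, and in 64.4% and 62.9% of *EYFP*+ cells. For *Krt14* the shares were 37.1% and 26.0%, 65.6% and 51.7%, and 83.3% and 70.6% in that order, and for *Ctgf* 28.8% and 32.5%, 54.4% and 53.1%, and 78.9% and 85.3%. The part of free RNA in the *EYFP*- levels was not tested.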

How the data were processed

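The authors deposited UMI counts per gene and barcode, whole numbers not normalized before deposition, for 4 libraries of live cells with 28693 genes. The file headers name cellranger 6.1.2 and the submitters' processing notes Cell Ranger 3.1.0 and mm10; which of these made the counts is not settled here. Symbols listed more than once (58) are uncertain.

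Within each LATS1/2-KO library every *EYFP*+ cell was paired with an *EYFP*- cell by optimal assignment on log total UMIs, pairs over 5% apart being dropped (none was). Counts were summed per mouse and *EYFP* status and tested with edgeR 4.0.16 (R 4.3.3) by its quasi-likelihood test, with TMM scaling, its own filter on low counts, and p-values adjusted by Benjamini-Hochberg (BH) over the genes tested, with the mouse as block, since both sums come from 1 animal; deviations of such sums correlated with r = 0.249 across 8382 genes. The 17 rule genes and 13 mitochondrial genes were left out of the test. CPM carry no TMM. *EYFP*- sums were compared with CTL sums without a block, as replicate numbers do not link those mice (r = -0.018).

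Genes to name came from *Lats1*, *Lats2* and the rule's genes; the 14 largest and 14 smallest changes past the threshold with at least 20 CPM in the higher sum of, and the same direction in, both mice; at most 4 members by level of each of 27 lists; and a set of genes chosen by name. Others are said to have been named after their values were seen. Not every gene so chosen is described: the others are given through the counts of their lists, and which to describe was decided with their values known. Members, lists and names were chosen with earlier results of these data known. The fits were tested on simulated data that held no effect of mouse. Of added changes of log2 1, 58.3% were recovered for *EYFP*+ against *EYFP*- and 50% for *EYFP*- against CTL. False calls were 5.52% and 3.85% of those made. How the fits behave where mice differ was not tested. DESeq2 1.42.0, scipy 1.17.1 and matplotlib 3.10.9 were also used. Exact binomial intervals cover counting error only. Alternatives were other scaling, DESeq2, no low-count filter, no block, no matching, thinning to 4000 UMIs, at least 2 *EYFP* UMIs, stricter cell limits, a log2 fold change of 0.6 and leaving out mice. Leaving out cells with 3 or more macrophage UMIs was added after the data had been seen.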

Additional observations from a re-analysis of the deposited data

Results flagged for a closer look

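*EYFP* also appeared in LATS1/2-KO cells that the comparison leaves out, and at several steps of the rule its share was above that of CTL cells left out at the same step. These are epithelial and other cells of the same 2 libraries. Among cells that met every earlier limit but carried a UMI of the 8 cell cycle genes, 22.9% in replicate 1 and 28.9% in replicate 2 were *EYFP*+, against 0 of 121 and 0 of 102 in CTL, with an exact 95% upper limit of 3.55% or less in each. Cells left out for a UMI of *Crct1* gave 39.6% and 47.8%, and no CTL cell was left out at that step, so the reference was the highest share at any step in CTL, 1.00%. Cells with 2 or more UMIs of *Prlr*, *Cited1* and *Esr1* gave 12.4% and 18.5%, against 0.186% (2 of 1077) and 0 of 615 in CTL. Cells with a UMI of *Krt5* or *Trp63* gave 8.33% and 10.5%, against 0 of 104 and 0 of 41 in CTL, with exact 95% upper limits of 3.48% and 8.60%, so that the share of replicate 1 lies within the limit of CTL replicate 2. Cells under 4000 or over 15000 UMIs gave 18.5% and 21.3%, against 0.294% and 0.844% in CTL, at median depths of 3265 and 3249 UMIs in LATS1/2-KO and 3779 and 17650 in CTL. At the keratin limit the shares were 1.54% (exact 95% interval 0.568 to 3.33) and 2.11% (1.31 to 3.21) in LATS1/2-KO against 0.794% (0.0201 to 4.34) and 1.00% (0.0253 to 5.45) in CTL, intervals that overlap.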

How the results depend on the processing

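For *EYFP*+ against *EYFP*- cells, 1019 genes were called, and the count fell to 95 with DESeq2, to 145 with no replicate block (no block on mouse), to 200 with cells of 4000 to 8000 UMIs (43 and 60 pairs of cells in place of 90 and 143) and to 396 without cells with stromal or immune UMIs (58 and 92 pairs). It was 693 to 1173 in the other alternatives. Leaving out cells with 3 or more macrophage UMIs gave 693, a choice made after the data had been seen. With 2 mice, leaving out a mouse leaves no spread to test, so the other mouse's values are given with no test. For *EYFP*- cells against CTL, 3469 genes were called, 5025 with all *EYFP*- cells, 4201 with no low-count filter, 1955 with DESeq2, 2160 at 4000 UMIs per cell and 2044 to 2600 with 1 library left out, where the lone sum is assumed to vary like the other group. The replicate block gave 3546 there, other size factors 3448 and a mitochondrial limit of 10% 3308. The mean *EYFP*+ share was 15.9%, and 9.30% with at least 2 UMIs, 11.1% at 4000 to 8000 UMIs and 11.1% after thinning to 4000. The cause was not tested where no value above shows it.

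Under the alternatives with a test, log2 fold changes of named genes kept their direction and side of the threshold in 1529 cases, lost the call in 261, gained it in 28 and changed sign in 46. The genes that had passed the test and changed sign were *Acta2*, *Igfbp3*, *Col1a1*, *Col3a1*, *Col1a2* and *Lum*, and the others had not passed it. The log2 values that changed sign were *Lats2* (0.066), *Amotl1* (0.0060), *Vgll4* (0.12), *Acta2* (-0.79), *Krt19* (-0.36), *Ctnnb1* (0.24), *Cldn3* (-0.093), *H2afz* (0.12), *Sox9* (0.18), *Gpx4* (0.058), *Mt1* (0.070), *Fabp5* (0.10) and *Efnb2* (-0.0057) at 4000 to 8000 UMIs, *Igfbp3* (-0.066), *Ctnnb1* (0.0065), *Cldn3* (-0.0029), *Hspb1* (-0.068), *Fabp5* (0.090), *Col1a1* (-0.17), *Col3a1* (-0.30) and *Col1a2* (-0.49) with 8 further cell cycle genes at 0, and *Amotl1* (0.26), *Krt19* (-0.033), *Hspb1* (-0.050), *Sox9* (0.025), *Col1a1* (-0.11) and *Col3a1* (-0.41) without cells with stromal or immune UMIs. They were *Amotl1* (0.12), *Tagln* (-0.27) and *Dcn* (-0.97) unmatched, *Amotl1* (0.068), *Vgll4* (0.028), *Tagln* (-0.077), *Igfbp3* (-0.095), *Ctnnb1* (0.16), *Gpx4* (0.018), *Dcn* (-1.39) and *Lum* (-0.18) unmatched and thinned, *Amotl1* (0.053), *Vim* (-0.079), *Cldn3* (-0.063), *Cldn7* (-0.038), *Dcn* (-0.20) and *Yap1* (0.14) with at least 2 *EYFP* UMIs, *Thbs1* (-0.012) with a mitochondrial limit of 10% and *Ctnnb1* (0.0047) without cells with macrophage UMIs. Of these, *Dcn* (unmatched, and thinned) and *Col1a2* passed the edgeR test in the changed direction. With no test in a single mouse, the sign was that of the pair in 305 cases and the opposite in 17, which were, without replicate 1 and without replicate 2, *Ly6a* (0.13 and -0.47), *Krt17* (-0.31 and 1.03), *Tagln* (-0.63 and 1.81), *Krt19* (-0.031 and 0.092), *Thbs1* (0.37 and -0.11), *Hbegf* (0.40 and -0.022), *Ctnnb1* (-0.062 and 0.040), *Cldn3* (0.089 and -0.063), *Hspb1* (-0.043 and 0.24), *Mt1* (-0.86 and 0.13), *Fabp5* (0.24 and -0.37), *Dcn* (-0.26 and 2.02), *C1qa* (0.27 and -3.59), *Il34* (1.58 and -0.73), *Efnb2* (0.59 and -0.027), *Yap1* (0.20 and -0.73) and *Aldh1a3* (0.070 and -0.63). Among these *C1qa* had passed the test. Depth limits genes of few UMIs, such as *Lats1*.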
